A study of Canis lupus familiaris with 16 samples.

Results

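KU-cHCC-001 is 1 of 4 canine hepatocellular carcinoma cell lines of this series, each grown from the liver tumour of a dog, and here its libraries were set against those of the other 3, named KU-cHCC-002, KU-cHCC-004 and, last, KU-cHCC-005. All libraries given the treatments DMSO, sorafenib or toceranib were taken, 3 of KU-cHCC-001 and 9 of the other lines, 12 of the 16 in the series. Each line had 1 library per treatment: DMSO, the vehicle of sorafenib; sorafenib at 30 µM; and toceranib at 15 µM, all for 24 h. Each line is 1 culture, and the labels name no repeat of a treatment. All cells were cultured in Advanced DMEM with fetal bovine serum, Glutamax, HEPES and N-acetyl-L-cysteine. Toceranib was dissolved in DPBS, so a difference between toceranib and DMSO also holds the difference between vehicles. The 4 DPBS libraries were left out because their line labels are in doubt. In the library labelled KU-cHCC-001 with DPBS, KRT19 was at 2620 CPM (CPM, counts scaled to a common library size, here by the total count), L1CAM at 1.56 and HOXA9 at 0, while the other libraries of that line, scaled in the same way, held 6.97 to 74.9, 529 to 1260 and 37.9 to 72.6. The 3 libraries of a line are treatments of 1 cell line and not separate cultures of a group. The p-values below measure the spread between these libraries and say nothing of mesenchymal-like lines in general.

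Epithelial cells hold together through E-cadherin adherens junctions, desmosomes and claudin tight junctions, and carry keratin filaments. Cells in a mesenchymal state lose part of these structures, build vimentin filaments and a fibronectin and collagen matrix, and express transcription factors of the ZEB, SNAI and TWIST families. Liver tumours can show either state, and many hold both in part. Sorafenib and toceranib are inhibitors of receptor tyrosine kinases used in human and canine oncology respectively.

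Total counts ran from 17055803 to 21943572 in KU-cHCC-001 and from 12008366 to 20312123 in the other lines, and 14548 to 15449 against 13471 to 14566 genes had at least 10 counts. Across the tested genes, log2(CPM + 0.5) of KU-cHCC-001 libraries correlated with those of other lines at 0.807 to 0.871. Within KU-cHCC-001 the values were 0.935 to 0.97, and between libraries of 2 other lines 0.905 to 0.969, a range that contains the one within an other line (0.924 to 0.967). On the first principal component, which held 50.8% of the variance, KU-cHCC-001 lay at 122 to 132 and the other libraries at -49.8 to -34.3. Among the 12 libraries compared, 2 of the toceranib arm stood apart in stromal transcripts. In KU-cHCC-005 with toceranib, the library with the lowest total, the fibroblast collagen COL3A1 was at 50.7 CPM, the proteoglycans LUM and DCN at 21.9 and 16.9, and smooth muscle actin ACTA2 at 106. KU-cHCC-004 with toceranib held 6.36 CPM of COL3A1 and 11.9 of ACTA2. Counts were therefore also computed without these 2 libraries. COL3A1 was not confined to toceranib in the series. Scaled by the total count, it reached 73.9 CPM with DPBS under the label KU-cHCC-002 and 81.7 under KU-cHCC-005. Under the labels KU-cHCC-001 and KU-cHCC-004 it was at 0 with DPBS. The source of these transcripts was not tested. In bulk RNA, fewer cells of a type and less RNA per cell cannot be told apart.

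The 6 line markers separated KU-cHCC-001 from the others in every treatment. Values of KU-cHCC-001 are given throughout in the order DMSO, sorafenib, toceranib, in CPM scaled by edgeR's TMM factors, followed by the range over the 9 other libraries. VIM, the filament protein vimentin, was at 6801, 6867 and 4805 CPM, against 1293 to 3154 CPM with a median of 2026 (log2 fold change 1.61 ± 0.24, adjusted p = 0.000254). FN1, which encodes fibronectin, stood at 6355, 2725 and 3993 CPM, against 398 to 904 CPM with a median of 511 (log2 fold change 2.93 ± 0.24, adjusted p = 2.76e-06). Both were above all 9 other libraries, and FN1 was lowest with sorafenib. L1CAM, a neural cell adhesion molecule, reached 1142, 456 and 1011 CPM, against 0.235 to 48.9 CPM with a median of 3.09 (log2 fold change 6.14 ± 1.23, adjusted p = 0.00305). L1CAM varied widely among the other lines, and its call was lost when counts were summed per line (adjusted p = 0.0759).

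The 3 epithelial markers lay below all 9 other libraries. KRT7, a keratin of ducts and glands, was at 293, 241 and 294 CPM, against 3761 to 7509 CPM with a median of 5711 (log2 fold change -4.36 ± 0.27, adjusted p = 2.86e-07). KRT19, the bile duct and progenitor keratin, was at 21.6, 6.01 and 68.6 CPM, against 1331 to 4994 CPM with a median of 2897 (log2 fold change -6.97 ± 0.64, adjusted p = 6.86e-06). CLDN4, a claudin of tight junctions, was at 1.69, 1.62 and 5.05 CPM, against 215 to 806 CPM with a median of 471 (log2 fold change -7.43 ± 0.48, adjusted p = 3.97e-07). Within KU-cHCC-001, KRT19 and CLDN4 were highest in the toceranib library of KU-cHCC-001, still far under the lowest value elsewhere. The fold change is the coefficient of KU-cHCC-001 minus the other lines in edgeR's quasi-likelihood fit with treatment as a factor. The ± value is an approximate standard error, the size of the fold change divided by the square root of the test's F statistic. Each ± value in the text was computed in this way, and it is unreliable where a side has few or no counts. P-values were adjusted over all tested genes.

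**Figure D1:**
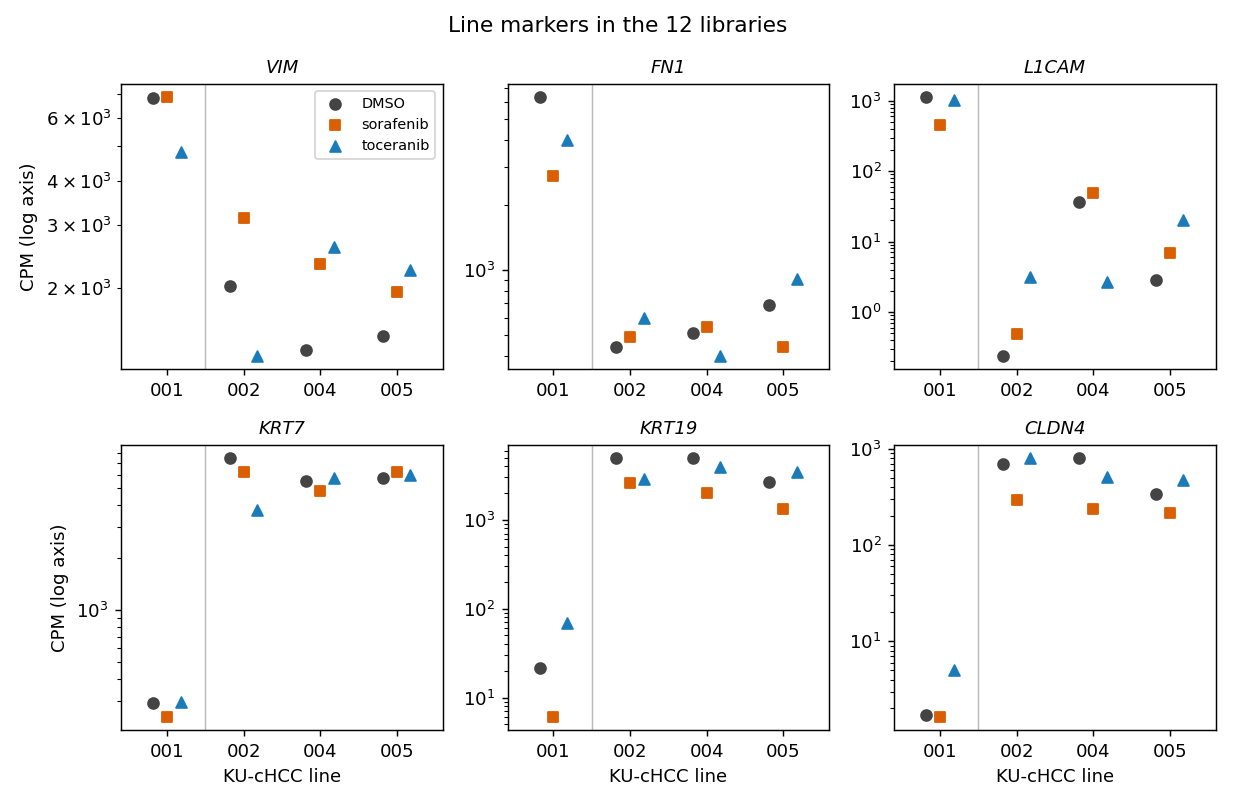
CPM on a log axis of the 6 line markers in each of the 12 libraries; each point is 1 library, the horizontal axis gives the KU-cHCC line, and shape and colour give the treatment. KU-cHCC-001 lies above the 9 other libraries for VIM (4805 to 6867 CPM), FN1 and L1CAM and below them for KRT7, KRT19 (6.01 to 68.6 CPM) and CLDN4.

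Of 15866 tested genes, 3269 (20.6%) were higher and 2548 (16.1%) lower in KU-cHCC-001 at an adjusted p under 0.05, and 2324 and 1703 of these differed at least 2-fold. All 3 libraries lay above all 9 others for 2003 genes (12.6%) and below them for 1386 (8.74%). Summing the counts of each line, which leaves 1 line against 3, gave 1315 higher and 817 lower genes, and 1138 and 810 of the calls above were among them. Without the toceranib libraries of KU-cHCC-004 and KU-cHCC-005 there were 2914 and 2176 calls. Leaving out the DMSO library of KU-cHCC-001 reduced the higher calls to 2143. The share of calls that were higher, 56.2% with TMM, was 70.7% when libraries were scaled by their totals alone, which gave 4535 and 1877 calls and moved the median log2 fold change of all genes from 0.02 to 0.23.

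The genes with the largest differences were present in one side and nearly silent in the other. All passed the low-count filter through their high side alone, so that they had to differ, and their values are a description. Among the 12 named with the largest excess in KU-cHCC-001 was CTHRC1, a secreted glycoprotein of remodelling matrix. It was at 69.5, 45.6 and 200.2 CPM, and the 9 other libraries held 1 count in all, a ratio of 17368 with a 95% counting interval of 3116 to 686090. HS6ST2, a heparan sulfate sulfotransferase, was at 38.5, 37.2 and 40 CPM and at 0 in all 9, at least 2052-fold higher against a floor of 3 counts over the group. The transcription factor genes ZIC5, SIM1, POU3F3 and HOXA7 had no count in the 9 libraries either. They were at least 1844, 1746, 1592 and 1339-fold higher. SIM1 was at 37.3, 18.3 and 43.2 CPM and POU3F3 at 37, 13.1 and 40.4 CPM, both lowest with sorafenib. The claudin CLDN10 (22.2, 1.31 and 77 CPM) and GABRA3, a GABA receptor subunit (31.5, 7.32 and 54.1 CPM), were also at 0 elsewhere and varied more among the 3 treatments than the rest of the 12. SCIN, an actin-severing protein, stood at 83.7, 40.9 and 68.4 CPM, HOXA9 at 65.6, 32.7 and 62.2 CPM and SHISAL1 at 67.2, 33.9 and 47.9 CPM, each against 1 count in all. PEG10, an imprinted gene derived from a retrotransposon, was at 193, 50.9 and 90.1 CPM against 3 counts.

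In the other direction, FAM3D, a secreted cytokine-like protein, had no count in the 3 libraries of KU-cHCC-001 and was at 101 to 542 CPM with a median of 262 elsewhere, at least 6083-fold lower. PTPRZ1, a receptor-type phosphatase, was at 0 against 43.3 to 129.9 CPM, SNRPN at 0 against 35.5 to 92 and SNURF at 0 against 8.38 to 29.7. SNRPN and SNURF can share 1 transcript, so counts of the 2 are uncertain. VGLL1, a TEAD cofactor, and the ubiquitin ligase TRIM6 were at 0 against 13.7 to 59.9 and 6.27 to 29.9 CPM. S100P, a calcium-binding protein, was at 0.159, 0.0877 and 0.167 CPM against 205 to 532, and KCTD14 had 1 count against 17.4 to 61.5 CPM. The protease TMPRSS11D, the trefoil peptide TFF3, the retinaldehyde dehydrogenase ALDH1A3 and the hepatic lipase LIPC were also at 0 in KU-cHCC-001. In those 4 genes the other lines differed widely among themselves. TFF3 ranged over 0.357 to 145 CPM, and its call was lost with counts summed per line (adjusted p = 0.104), as were those of TMPRSS11D (0.066), ALDH1A3 (0.121) and LIPC (0.142).

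Most tested keratins, adherens junction and desmosome genes and epithelial regulators were lower in KU-cHCC-001, while tight junction genes went both ways. Beside each list below stand the median log2 fold change of its tested members and, in brackets, the same median with group totals under 3 counts set to 3, the floor. Over all tested genes these were 0.02 and -0.02, with 20.6% called higher and 16.1% lower. A gene that passed the low-count filter only through the side where it is high had to differ, so such a gene is given with no test, and each list's calls are also counted among the members kept through both sides. Over all genes these were 13134, of which 19.3% were higher and 14.2% lower. Among keratins, 9 of 15 were tested, 0 of which passed the low-count filter through KU-cHCC-001 alone and 2 through the other lines alone. Of these, 0 were higher, 6 lower and 3 not called (0 higher and 6 lower among the 7 kept through both sides), with a median of -2.78 (-2.80 at the floor). KRT18, a partner of KRT8 in simple epithelia, was at 371, 270.5 and 535 CPM against 2993 to 9153 (log2 fold change -3.75 ± 0.36, adjusted p = 9.26e-06). KRT8 was at 1650, 1100 and 1347 CPM against 4264 to 10055, and remained a high transcript in KU-cHCC-001. KRT16, a keratin of stressed squamous epithelium, was at 1.16, 8.59 and 2.63 CPM against 12.2 to 118. All 6 lower keratins lay below the 9 other libraries and were called with counts summed per line as well.

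Of adherens junction and desmosome genes, 20 of 20 were tested, 0 of which passed the low-count filter through KU-cHCC-001 alone and 3 through the other lines alone. Of these, 1 was higher, 14 lower and 5 not called (1 higher and 11 lower among the 17 kept through both sides), with a median of -1 (-0.95 at the floor), and summing counts per line left 0 higher and 9 lower. CDH1, which encodes E-cadherin, was at 235, 166 and 233 CPM against 1340.2 to 2887 (log2 fold change -3.22 ± 0.30, adjusted p = 6.89e-06). E-cadherin mRNA was thus lower but present in all 3 libraries, and 0 genes lay above all 9 other libraries and 10 below them in this list. The desmosomal plakophilin PKP3 (11.1, 4.65 and 3.17 CPM against 61.3 to 297) was lower. The plakophilin PKP1 (0, 0.438 and 2.25 CPM against 35.7 to 267) and the desmosomal cadherin DSG3 (0.37, 0.702 and 0.209 CPM against 2.83 to 138) were on the lower side. Both were kept through their high side and are given with no test. DSG3 was not called with counts summed per line (adjusted p = 0.105). The catenins CTNNB1 (444, 424 and 456 CPM against 399 to 758) and CTNNA1 (721, 718 and 859 CPM against 581 to 1088), which link cadherins to actin, were not called. P-cadherin, CDH3, was the 1 member called higher, at 58.1, 39.6 and 92.1 CPM against 6.89 to 46.6 (adjusted p = 0.0456; 0.249 with counts summed per line).

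Of tight junction genes, 29 of 31 were tested, 2 of which passed the low-count filter through KU-cHCC-001 alone and 5 through the other lines alone. Of these, 5 were higher, 13 lower and 11 not called (3 higher and 9 lower among the 22 kept through both sides), with a median of -0.64 (-0.72 at the floor), and 3 higher and 7 lower with counts summed per line. CLDN7 was at 0.265, 0.0438 and 24.6 CPM against 116 to 723 (kept through its high side, no test) and CLDN23 at 0.212, 0.307 and 0.459 CPM against 4.9 to 21.9. OCLN, which encodes occludin, was at 19.3, 28.4 and 36.8 CPM against 41.4 to 101 (log2 fold change -1.29 ± 0.29, adjusted p = 0.00415). The scaffold TJP1 (138, 190.1 and 55.6 CPM against 91.2 to 186) was not called. On the higher side stood CLDN10, named above, CLDN16 at 7.04, 2.32 and 71.8 CPM against 0 to 0.612 (kept through its high side, no test), CLDN1 at 261, 169 and 409.7 CPM against 1.77 to 80.7, JAM3 at 8.47, 6.93 and 7.39 CPM against 0 to 1.58 and CGNL1 at 44.5, 96.4 and 81.9 CPM against 6.42 to 64.9. Of these 5, CGNL1 overlapped the other lines. CLDN1 and CGNL1 lost their calls with counts summed per line (adjusted p = 0.202 and 0.0818).

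Among epithelial regulators and surface genes, 34 of 36 were tested, 1 of which passed the low-count filter through KU-cHCC-001 alone and 5 through the other lines alone. Of these, 1 was higher, 24 lower and 9 not called (0 higher and 20 lower among the 28 kept through both sides), with a median of -1.74 (-1.73 at the floor) and 0 higher and 18 lower with counts summed per line. GRHL2, a transcription factor that maintains epithelial junctions, was at 0.318, 0.219 and 0.292 CPM against 31.4 to 73.3 (kept through its high side, no test). RAB25, a GTPase of apical recycling, was at 0.106, 0.175 and 0.167 CPM against 97.5 to 299.6 (kept through its high side, no test). Both were near 0 in all 3 libraries, and in the list 1 gene lay above all 9 other libraries and 20 below them. The membrane proteases PRSS8 (0, 0.0438 and 0.167 CPM against 52.3 to 113) and TMPRSS2 (1.11, 0.702 and 0.96 CPM against 22.7 to 182) were likewise below all 9 libraries. The splicing factors ESRP1 (47.3, 55.5 and 124 CPM against 148 to 251) and ESRP2 (21.5, 12.2 and 21.4 CPM against 30.8 to 95.1), which set epithelial splice forms, were lower but not silent. EPCAM, an epithelial surface glycoprotein, was at 232, 208 and 510.4 CPM against 265 to 684 and was not called (log2 fold change -0.36 ± 0.19, adjusted p = 0.152).

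Several transcription factors of the mesenchymal transition were higher in KU-cHCC-001, though not all of them. Of the list, 19 of 26 were tested, 4 of which passed the low-count filter through KU-cHCC-001 alone and 3 through the other lines alone. Of these, 11 were higher, 3 lower and 5 not called (7 higher and 1 lower among the 12 kept through both sides), with a median of 2.85 (2.68 at the floor), and 6 higher and 2 lower with counts summed per line. TWIST1 was at 11.1, 14.9 and 12.7 CPM against 0 to 0.104 (kept through its high side, no test). ZEB2 was at 7.57, 8.55 and 2.71 CPM against 0 to 0.416 (kept through its high side, no test). ZEB1, the related E-cadherin repressor, was at 17.2, 51.6 and 3.26 CPM against 0.0551 to 2.33 (log2 fold change 5.32 ± 0.78, adjusted p = 0.00027) and SNAI2 at 8.84, 27.9 and 2.34 CPM against 0.594 to 3.83. SNAI2 overlapped the other lines. For ZEB1, ZEB2 and SNAI2 the toceranib library was the lowest of the 3, and for ZEB1 and SNAI2 the sorafenib library the highest. TBX18, a T-box factor of mesoderm, was at 9.42, 10.3 and 2.34 CPM and at 0 elsewhere, at least 379.8-fold higher. SNAI1 went the other way, at 0.9, 3.33 and 1.59 CPM against 5.24 to 68.4 (log2 fold change -3.58 ± 0.48, adjusted p = 0.000123), and TBX3 at 0.159, 0 and 0.125 CPM against 6.63 to 15 (kept through its high side, no test).

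Of mesenchymal cytoskeleton and adhesion genes, 22 of 27 were tested, 3 of which passed the low-count filter through KU-cHCC-001 alone and 1 through the other lines alone. Of these, 12 were higher, 4 lower and 6 not called (9 higher and 4 lower among the 18 kept through both sides), with a median of 1.52 (1.22 at the floor), and 7 higher and 2 lower with counts summed per line. DES, the muscle filament protein desmin, was at 139, 50.7 and 40.2 CPM against 0 to 1.16 (kept through its high side, no test). The receptor tyrosine kinase AXL was at 16.4, 39.6 and 9.19 CPM against 0 to 1.41 (kept through its high side, no test). The actin bundler FSCN1, fascin, was at 350.2, 451 and 256 CPM against 9.48 to 49.9 (log2 fold change 3.92 ± 0.28, adjusted p = 8.76e-07). None of these 3 overlapped the other lines. THY1, a surface protein of fibroblasts and neurons, was at 15.4, 22.6 and 18 CPM against 0 to 2.66 (kept through its high side, no test). Neither THY1 nor the cadherin CDH13 was called with counts summed per line (adjusted p = 0.089 and 0.067). N-cadherin, CDH2, was at 99.5, 215 and 55 CPM against 9.68 to 239 and was not called (log2 fold change 0.11 ± 0.86). TAGLN, a smooth muscle actin-binding protein, was lower at 2.49, 3.77 and 3.63 CPM against 13.6 to 509.8 (adjusted p = 0.0197), and ACTA2 was at 0.106, 0.395 and 0.71 CPM.

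Matrix genes were mostly on the higher side: 41 of 52 were tested, 9 of which passed the low-count filter through KU-cHCC-001 alone and 3 through the other lines alone. Of these, 20 were higher, 5 lower and 16 not called (14 higher and 4 lower among the 29 kept through both sides), with a median of 1.85 (1.36 at the floor). With counts summed per line 7 higher and 5 lower were called, and without the toceranib libraries of KU-cHCC-004 and KU-cHCC-005 23 higher and 5 lower. TGFBI, an integrin-binding matrix protein, was at 42.1, 20.6 and 38.1 CPM against 0 to 0.471 (kept through its high side, no test). The collagen cross-linking oxidase LOX was at 188, 262 and 101 CPM against 2.3 to 25.5 (log2 fold change 4.30 ± 0.29, adjusted p = 5.24e-07) and the latent TGF-beta binding protein LTBP1 at 457, 502 and 291 CPM against 0.717 to 15.9 (log2 fold change 5.82 ± 0.65, adjusted p = 6.19e-05). In the list 14 genes lay above all 9 other libraries and 2 below them. EFEMP1, a fibulin (188, 78.9 and 162 CPM against 0 to 12.7), and the fibrillin FBN1 (165, 110.1 and 11.8 CPM against 0 to 6.24) were on the higher side. So were the collagens COL1A1 (41.8, 33.4 and 74.6 CPM against 0 to 103) and COL6A2 (5.35, 12.2 and 3.72 CPM against 0 to 7.9). All 4 were kept through their high side and are given with no test. None of them was called with counts summed per line (adjusted p = 0.0983, 0.0654, 0.462 and 0.345). In each of the 4, KU-cHCC-005 with toceranib was the highest of the 9. FBLN1, the elastic fibre protein fibulin, was lower, at 21.1, 15.7 and 4.97 CPM against 291 to 631 (log2 fold change -4.86 ± 0.51, adjusted p = 1.98e-05).

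The mesenchymal-like label was checked against markers of fibroblasts and stellate cells. Of 18 markers, 2 (PDGFRA and COL1A1) reached 5 CPM in all 3 KU-cHCC-001 libraries, and 6, among them COL3A1, DCN and RGS5, had no count in any of them. In the other lines 5 had none. Of 6 tested, 3 were higher and 0 lower (2 higher and 0 lower among the 3 kept through both sides), with a median of 2.91 (2.04 at the floor). LUM was at 0, 0 and 0.585 CPM. The summed level of the list was 81.6 to 139 CPM in KU-cHCC-001 and 4.13 to 350.2 in the other lines, where KU-cHCC-005 with toceranib was the highest. PDGFRA, the alpha receptor for platelet-derived growth factor, was at 61.5, 29.4 and 37 CPM against 2.21 to 16.5, and PDLIM3 at 13.4, 8.51 and 3.46 CPM against 0.165 to 1.08. KU-cHCC-001 thus held VIM, FN1, TWIST1 and ZEB2 together with CDH1, KRT8, EPCAM and part of the fibroblast list.

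**Figure D2:**
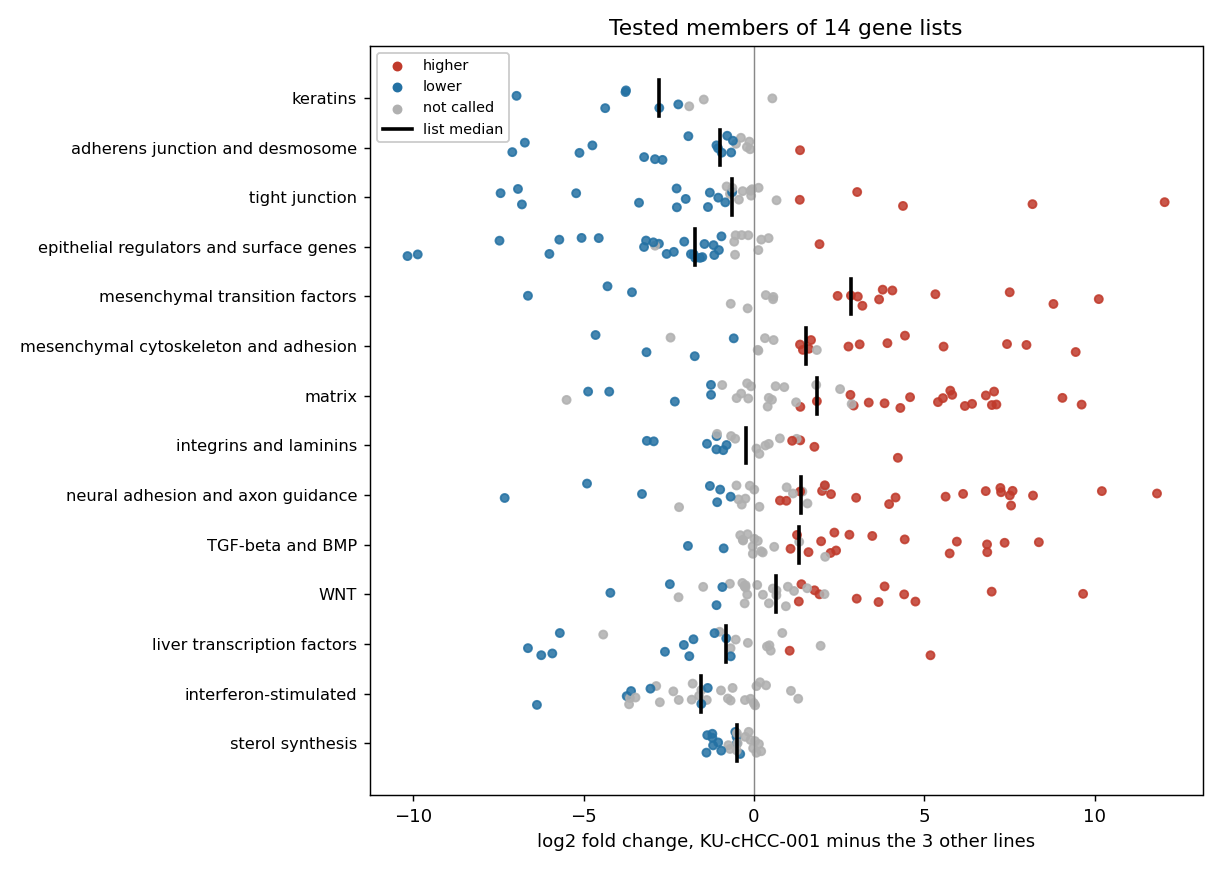
Log2 fold change of KU-cHCC-001 minus the 3 other lines for each tested member of 14 gene lists; each point is 1 gene, red for called higher, blue for called lower and grey for not called, and the black bar is the list's median. Keratins and epithelial regulators lie mainly left of 0 (medians -2.78 and -1.74), mesenchymal transition factors mainly right of it (2.85), and integrins and laminins on both sides.

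Integrins and laminins, the receptors and proteins of basement membranes, were split. Of the list, 20 of 27 were tested, none of which passed the low-count filter through 1 side alone. Of these, 4 were higher, 7 lower and 9 not called, with a median of -0.24 (-0.41 at the floor). LAMB3, a laminin chain that anchors epithelia, was lower at 83.4, 113 and 141 CPM against 389.5 to 1508. ITGB8, which activates latent TGF-beta, was higher at 250.1, 67.8 and 144 CPM against 1.02 to 27 (log2 fold change 4.22 ± 0.58, adjusted p = 0.000241), as was ITGB3 at 42.9, 80.9 and 21 CPM against 3.99 to 39. ITGB3 overlapped the other lines, while LAMB3 and ITGB8 did not. Of extracellular proteases and their inhibitors, 24 of 28 were tested, 3 of which passed the low-count filter through KU-cHCC-001 alone and 1 through the other lines alone. In all 10 were higher, 7 lower and 7 not called (7 higher and 6 lower among the 20 kept through both sides), with a median of 1.52 (1.88 at the floor). ADAMTS1 was at 71.3, 16.4 and 135 CPM against 0.772 to 5.32 (log2 fold change 4.90 ± 0.41, adjusted p = 3.55e-06) and the membrane collagenase MMP14 at 75.4, 79.8 and 106 CPM against 1.87 to 15 (log2 fold change 3.30 ± 0.47, adjusted p = 0.000254). ADAM19 and ADAMTS5 were kept through their high side, with no test, and ADAMTS9 was called higher. With counts summed per line ADAM19, ADAMTS5 and ADAMTS9 were not called (adjusted p = 0.151, 0.0552 and 0.1). MMP15 (32.1, 16.3 and 27.4 CPM against 133 to 320.2) and SERPINB5, maspin (5.98, 15.5 and 28.9 CPM against 84.2 to 174), were lower.

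L1CAM was accompanied by other genes of neural adhesion and axon guidance. Of the list, 40 of 53 were tested, 7 of which passed the low-count filter through KU-cHCC-001 alone and 4 through the other lines alone. Of these, 20 were higher, 7 lower and 13 not called (13 higher and 4 lower among the 29 kept through both sides), with a median of 1.39 (1.29 at the floor), and 9 higher and 4 lower with counts summed per line. CHL1, a close relative of L1CAM, was at 7.04, 26.9 and 42.3 CPM and at 0 elsewhere, at least 1424-fold higher. The guidance cue SLIT3 was at 164, 65.7 and 136 CPM against 0.0589 to 2.91 (log2 fold change 7.51 ± 0.58, adjusted p = 3.03e-06) and its receptor ROBO1 at 52.9, 55.7 and 11.9 CPM against 0 to 1.66 (log2 fold change 6.80 ± 0.79, adjusted p = 5.88e-05). In this list 18 genes lay above all 9 other libraries and 2 below them. The semaphorin SEMA6A was at 10.2, 2.1 and 13.6 CPM and 0 elsewhere, and SEMA3F at 111, 50.8 and 118 CPM against 2.58 to 10.3. The cytoskeletal genes DPYSL3 (394, 536 and 337 CPM against 0 to 16.8) and MAP1B (90, 377 and 75 CPM against 0.11 to 23.7) lost their calls with counts summed per line (adjusted p = 0.0632 and 0.0722). SEMA5A was on the lower side, at 0.318, 0 and 0.0418 CPM against 9.25 to 33.5 (kept through its high side, no test). Neuroendocrine markers gave 8 tested genes of 17, with 4 higher and 1 lower (3 higher and 0 lower among the 6 kept through both sides) and a median of 1.72 (1.50 at the floor). The prohormone convertase PCSK1 (446, 116 and 593 CPM against 2.04 to 66.8), the granule protein SCG5 (9.63, 11 and 24.9 CPM against 0.567 to 6.07) and STMN1 (144, 117 and 225 CPM against 33 to 184) were called higher, none of them with counts summed per line (adjusted p = 0.0848, 0.077 and 0.0836). The granule protein CHGA, at 27.2, 20.6 and 33.2 CPM against 6.12 to 38.4, was not called.

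Products of mature hepatocytes were scarce in all 4 lines, and genes of early liver and bile duct cells set KU-cHCC-001 apart in both directions. Of 36 hepatocyte genes in the table, 8 passed the filter, 6 of them through the other lines alone. Of the tested genes 1 was higher, 3 lower and 4 not called (1 higher and 0 lower among the 2 kept through both sides). In all KU-cHCC-001 libraries 1 of the list was at 5 CPM or more (RBP4), and the list summed to 20.5 to 37 CPM there and 122 to 233 elsewhere. APOB, the apolipoprotein of secreted lipoproteins, was at 0.423, 0.438 and 0.0835 CPM against 3.29 to 136 and FAH, of tyrosine breakdown, at 1.38, 2.1 and 0.376 CPM against 74.6 to 139.8 (both kept through their high side, no test). RBP4, the retinol carrier, was at 19.6, 14.2 and 30.6 CPM against 2.09 to 19.4, its higher call lost with counts summed per line (adjusted p = 0.0931). Of liver transcription factors, 23 of 26 were tested, 1 of which passed the low-count filter through KU-cHCC-001 alone and 4 through the other lines alone. Of these, 2 were higher, 11 lower and 10 not called (1 higher and 8 lower among the 18 kept through both sides), with a median of -0.81 (-0.86 at the floor). ONECUT2 (2.91, 1.8 and 0.668 CPM against 63.4 to 334) and HNF4A, the hepatocyte identity factor (5.61, 2.67 and 30.2 CPM against 25.3 to 96.3), were lower. NR5A2 (1.22, 1.62 and 0.209 CPM against 33.1 to 69, kept through its high side, no test) was on the lower side.

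Among cholangiocyte and progenitor genes, 22 of 27 were tested, 0 of which passed the low-count filter through KU-cHCC-001 alone and 4 through the other lines alone. 5 were higher, 8 lower and 9 not called (5 higher and 5 lower among the 18 kept through both sides), with a median of -0.57 (-0.58 at the floor). The chloride channel CFTR (0.0529, 0.438 and 0 CPM against 33.7 to 239.6, kept through its high side, no test), the trefoil peptide TFF1 (1.85, 1.97 and 1 CPM against 236 to 1203) and SOX9 (1.8, 13.9 and 1.59 CPM against 22.9 to 93.1), a duct progenitor factor, were lower. PROM1 was on the lower side at 0.0529, 0.0438 and 0 CPM against 0.551 to 36 (kept through its high side, no test). PROM1 was not called with counts summed per line (adjusted p = 0.0987). BICC1, an RNA-binding protein of ducts and tubules, was higher at 649, 253 and 242 CPM against 10.2 to 70.8 (log2 fold change 3.57 ± 0.52, adjusted p = 0.000324), and osteopontin, SPP1, at 541, 30.2 and 2418 CPM against 1.73 to 294. In the oncofetal list, 13 of 15 were tested, 4 of which passed the low-count filter through KU-cHCC-001 alone and 1 through the other lines alone. Of these, 7 were higher, 4 lower and 2 not called (3 higher and 3 lower among the 8 kept through both sides), with a median of 2.28 (2.31 at the floor). IGF2BP1, a fetal RNA-binding protein, was at 143, 106 and 89.7 CPM against 0 to 0.551 (kept through its high side, no test), and alpha-fetoprotein, AFP, at 14.8, 3.07 and 9.44 CPM against 0 to 1.33 (log2 fold change 6.19 ± 0.74, adjusted p = 4.59e-05). SALL4 was lower, at 9.1, 3.51 and 2.5 CPM against 14.2 to 56.3.

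Markers of other cell types gave no uniform pattern. Of 27 endothelial markers, 12 were tested, 3 higher and 1 lower (1 higher and 0 lower among the 7 kept through both sides), and the list summed to 149 to 383 CPM in KU-cHCC-001 and 65.9 to 383 elsewhere. EGFL7 (129, 54.3 and 251 CPM against 2.97 to 12.9) was higher, while TIE1 was at 0. RAMP2 (5.82, 5.61 and 29.2 CPM against 0 to 0.294) and the VEGF receptor KDR (5.24, 6.36 and 9.98 CPM against 0 to 0.475) were on the higher side. Both were kept through their high side and are given with no test. Of 24 leukocyte markers 7 were tested, 0 higher and 3 lower (0 higher and 1 lower among the 4 kept through both sides). No count was seen for 12 markers in KU-cHCC-001 and for 8 in the other lines. CD14 (11.8, 9.56 and 12.2 CPM against 26.9 to 84.2) was lower. The leukocyte list summed to 18.4 to 336 CPM in KU-cHCC-001, the highest sum being that of the toceranib library, nearly all of it CD74. Of 9 mesothelial markers in the table, 4 were tested, 1 higher and 2 lower (0 higher and 1 lower among the 2 kept through both sides). WT1, also a kidney and gonad factor, was at 8.2, 8.64 and 4.72 CPM and 0 elsewhere, while UPK1B was at 34.5, 25.5 and 43 CPM against 41 to 173.

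HOX genes, which encode body-position factors, were present in KU-cHCC-001 and almost absent from the other lines. Of the 38 HOX genes in the table, 27 passed the filter. All 27 passed it through KU-cHCC-001 alone, so their being called higher follows from how they were kept and is given as a description. Their sum was 234 to 468 CPM in KU-cHCC-001 and 0.235 to 6.4 in the 9 other libraries. In the 9 other libraries 18 HOX genes had no count, and 2 had none in KU-cHCC-001. Genes of all 4 clusters were included. HOXA9 was counted most (65.6, 32.7 and 62.2 CPM), with HOXA3 at 46.9, 12.6 and 43.6 CPM, HOXA5 at 30, 14.4 and 17 CPM and HOXA13 at 10.3, 7.45 and 9.94 CPM. From the HOXB cluster, HOXB2 was at 34.7, 14.5 and 24.3 CPM, HOXB9 at 15.6, 18.4 and 11.4 CPM and HOXB13 at 23.1, 16.2 and 27.6 CPM. HOXC9 stood at 20.2, 5.66 and 23.5 CPM and HOXD8 at 33, 15.5 and 34.9 CPM. All of these but HOXB9 were lowest with sorafenib. Most HOX genes with counts in the other lines were highest in KU-cHCC-005 with toceranib, such as HOXC8 at 1.16 CPM and HOXC9 at 0.832. HOXB3 had counts in all 9 libraries of the other lines, at 16.4, 10.8 and 20.6 CPM against 0.118 to 0.998. Neighbouring and antisense HOX transcripts overlap, and without a stated strand setting single genes are uncertain.

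**Figure D3:**
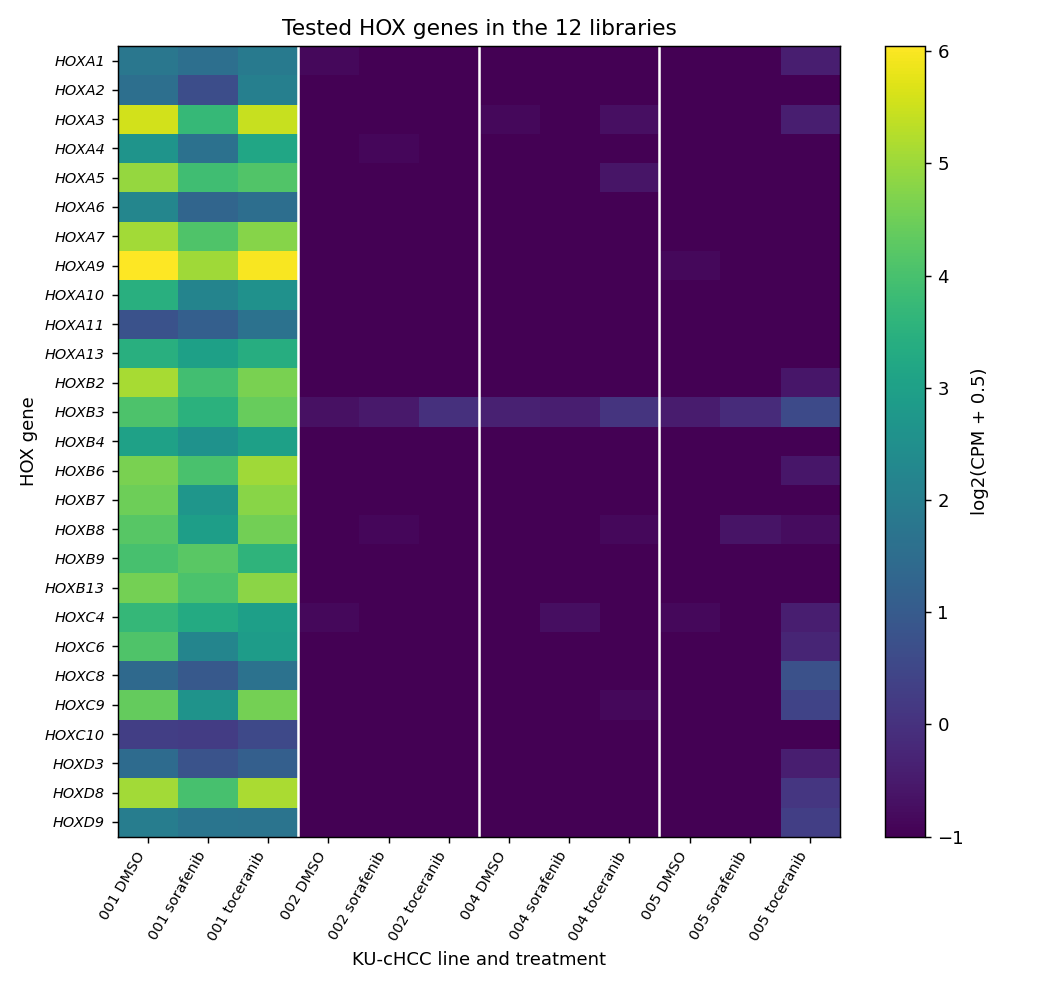
Heat map of log2(CPM + 0.5) for the 27 tested HOX genes (rows) in the 12 libraries (columns, by line and treatment); the value -1 stands for no count. The 3 KU-cHCC-001 columns hold all the high values, up to 65.6 CPM for HOXA9, and among the other 9 columns KU-cHCC-005 with toceranib holds most of the faint ones outside HOXB3.

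Some of the largest differences, SIM1, POU3F3, WT1 and CLDN10, are genes known from kidney development, and 2 kidney lists were therefore added after these values had been seen. They are given as a description with no test. Of 18 regulators of kidney development, 16 passed the filter, 10 of them through KU-cHCC-001 alone. PAX8, a factor of kidney and thyroid epithelium, was at 67.5, 50.2 and 72.8 CPM against 0.642 to 7.01, and PAX2 at 3.76, 5.79 and 8.1 CPM against 0 to 0.0589. SALL1 was at 67.8, 40.8 and 44.8 CPM against 0 to 3.1, EMX2 at 16.2, 4.6 and 20.8 CPM against 0 to 0.582 and IRX3 at 58.4, 38.3 and 115 CPM against 0.749 to 4.12. LHX1 was at 3.65, 3.33 and 4.26 CPM and 0 elsewhere. Of 20 tubule genes, 9 passed, 4 of them through KU-cHCC-001 alone, with 8 on the high side and 1 on the low side. The one on the low side was the water channel AQP3, at 1.43, 3.11 and 7.72 CPM against 9.21 to 116. The endocytic receptor LRP2, megalin, was at 27.8, 9.64 and 304 CPM against 0 to 1.16, and kidney cadherin CDH16 at 23.7, 7.45 and 118 CPM against 0 to 0.481. SLC12A1, the sodium-potassium-chloride transporter of the loop of Henle, was at 1.8, 0.438 and 89.2 CPM against 0 to 0.11. SLC12A1 did not pass the filter. All 3 were highest with toceranib. CUBN (71.5, 67.1 and 29.5 CPM against 1.18 to 16.2) and KL (14.9, 4.34 and 22.1 CPM against 0.177 to 1.58) were also above the 9 libraries. UMOD and NPHS1, of the loop of Henle and the podocyte, had no count in any of the 12 libraries.

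Imprinted genes, expressed from 1 parental copy, made a further list added after values were seen, with no test drawn from it. Of 22 in the table, 18 passed the filter. The paired genes H19 and IGF2 were both low: H19 at 98.4, 43.8 and 67.6 CPM against 5017 to 26473, IGF2 at 0.106, 0.219 and 0.209 CPM against 29.1 to 276. KCNQ1 (0.582, 0.307 and 0.626 CPM against 28.6 to 293), the growth inhibitor CDKN1C (2.59, 4.47 and 9.73 CPM against 21.7 to 47.6) and the adaptor GRB10 (4.13, 7.72 and 4.84 CPM against 83.9 to 231) were low as well. PEG10 and its neighbour SGCE (16.8, 19.6 and 31.7 CPM against 0 to 0.107), PEG3 (3.28, 5.3 and 5.93 CPM against 0 to 0.249) and MEST (15, 22.5 and 17 CPM against 0.235 to 3.58) were on the high side.

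Receptor tyrosine kinases, the class that both drugs inhibit, differed in which members were present. Of the list, 26 of 35 were tested, 4 of which passed the low-count filter through KU-cHCC-001 alone and 2 through the other lines alone. Of these, 10 were higher, 8 lower and 8 not called (6 higher and 7 lower among the 20 kept through both sides), with a median of -0.04 (-0.02 at the floor), and 7 higher and 2 lower with counts summed per line. The collagen receptor DDR2 was at 168, 148 and 175 CPM against 0.0551 to 2.49 (log2 fold change 7.98 ± 0.57, adjusted p = 1.89e-06), while its relative DDR1 was lower at 59.3, 57.3 and 95.9 CPM against 125 to 276 (adjusted p = 0.00101; 0.0719 with counts summed per line). ROR2, a WNT5A receptor, was at 37.5, 68.5 and 67.8 CPM against 0 to 0.582 (kept through its high side, no test). ERBB4 was at 26.8, 23.4 and 7.97 CPM and 0 elsewhere, at least 998-fold higher, while EGFR (61.5, 90.3 and 74.7 CPM against 113 to 219) and ERBB2 (62.9, 59.9 and 61.4 CPM against 70 to 222) were lower, without a call when counts were summed per line (adjusted p = 0.0569 and 0.135). MET, the hepatocyte growth factor receptor, was higher at 469, 379.6 and 211 CPM against 57.2 to 161 and its relative MST1R lower at 0.529, 0.745 and 1.21 CPM against 32.3 to 88.5. Both were also called with counts summed per line (adjusted p = 0.0183 and 0.00614). FGFR2 was at 106, 51.5 and 71.2 CPM against 1.77 to 34.7 (log2 fold change 3.51 ± 0.46, adjusted p = 0.000129). PDGFRA and KDR, 2 known targets of sorafenib and toceranib, are given above. Of growth factor ligands, 26 of 32 were tested, 1 of which passed the low-count filter through KU-cHCC-001 alone and 3 through the other lines alone. Of these, 6 were higher, 6 lower and 14 not called (5 higher and 5 lower among the 22 kept through both sides), with a median of 0.31 (0.04 at the floor). The EGFR ligand AREG was lower at 2.86, 3.9 and 2.05 CPM against 52.7 to 343 (log2 fold change -5.73 ± 0.48, adjusted p = 3.4e-06), and FGF2 at 8.68, 20.3 and 3.8 CPM against 29.1 to 56.6. EGF was higher at 29.7, 8.99 and 44.9 CPM against 0 to 1.99, not with counts summed per line (adjusted p = 0.0818).

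In the TGF-beta and BMP pathways, 31 of 35 were tested, 5 of which passed the low-count filter through KU-cHCC-001 alone and 0 through the other lines alone. Of these, 16 were higher, 2 lower and 13 not called (11 higher and 2 lower among the 26 kept through both sides), with a median of 1.33 (1.24 at the floor), and 12 higher and 0 lower with counts summed per line. The ligands BMP4 (59.6, 32.4 and 53.6 CPM against 0 to 1.58) and BMP7 (53.4, 34.1 and 39.4 CPM against 0 to 0.772) passed the filter through KU-cHCC-001 alone and are given with no test. The inhibitory receptor BAMBI was at 15.6, 8.15 and 14.6 CPM against 0 to 0.16 (kept through its high side, no test) and the co-receptor TGFBR3 at 27.3, 7.5 and 26 CPM against 0 to 1.23. The BMP target genes ID1 (282, 15.5 and 298 CPM against 10 to 75.5), ID3 (109, 15.4 and 84.7 CPM against 5.05 to 28.5) and ID4 (90.6, 20.6 and 75 CPM against 0 to 3.58) were higher, and in KU-cHCC-001 each had its lowest value with sorafenib. ID1 and ID3 overlapped the other lines. Of WNT pathway genes, 35 of 51 were tested, 5 of which passed the low-count filter through KU-cHCC-001 alone and 1 through the other lines alone. Of these, 11 were higher, 4 lower and 20 not called (6 higher and 3 lower among the 29 kept through both sides), with a median of 0.66 (0.56 at the floor). The ligands WNT4 (10.3, 9.21 and 5.05 CPM against 0.0589 to 0.594) and WNT9A (9.1, 5.96 and 7.97 CPM against 0 to 1.57) were higher. The ligand WNT10A (5.13, 2.94 and 16.9 CPM against 0 to 0.284) and the secreted inhibitor SFRP1 (14.1, 15.6 and 0.918 CPM against 0 to 0.0521) were on the higher side. Both were kept through their high side and are given with no test. Among receptors, FZD7 was at 17.8, 16.6 and 21.7 CPM against 0.824 to 7.82 (log2 fold change 3.01 ± 0.37, adjusted p = 6.17e-05). WNT7B was lower, at 13.4, 46.4 and 12.9 CPM against 72.9 to 211. Notch and Hedgehog genes were evenly split, with 7 higher and 7 lower of 25 tested (5 higher and 4 lower among the 20 kept through both sides) and a median of 0.13 (-0.10 at the floor). The Hedgehog co-receptor GAS1 (18.6, 6.62 and 9.02 CPM against 0 to 1.13) was higher and the receptor NOTCH3 (1.91, 2.59 and 7.81 CPM against 5.81 to 45.1) lower. The effector GLI3 (27.1, 27.3 and 15.3 CPM against 0 to 2.83) was on the higher side and the ligand IHH (0.582, 0.0438 and 0.71 CPM against 3.02 to 17.9) on the lower side. Both were kept through their high side and are given with no test.

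More proliferation genes were called higher than lower, but most overlapped the other lines. Of cell cycle genes, 39 of 39 were tested, none of which passed the low-count filter through 1 side alone. Of these, 20 were higher, 5 lower and 14 not called, with a median of 0.98 (0.87 at the floor), and 5 higher and 3 lower with counts summed per line. In the list 4 genes lay above all 9 other libraries and 3 below them, against 12.6% and 8.74% of all tested genes. With all toceranib libraries left out, 11 were called higher and 5 lower. E2F7 was at 62.8, 58.4 and 30.4 CPM against 2.75 to 19 (log2 fold change 2.83 ± 0.36, adjusted p = 7.79e-05) and the replication factor MCM3 at 254, 224 and 361 CPM against 42.1 to 161 (log2 fold change 1.73 ± 0.20, adjusted p = 4.28e-05). MKI67, the Ki-67 gene, was at 577, 341 and 429 CPM against 17.3 to 499, overlapping the other lines, and lost its call with counts summed per line (adjusted p = 0.145). CDKN2C was higher, at 64.2, 15.4 and 71.7 CPM against 2.24 to 24.3, and cyclin D1, CCND1, lower, at 92.3, 71.8 and 62.8 CPM against 188 to 440.1 (log2 fold change -1.78 ± 0.25, adjusted p = 0.00018). CDKN1A, the cell cycle inhibitor p21, was lower, at 43.2, 128 and 77.3 CPM against 113 to 877 (log2 fold change -2.03 ± 0.35, adjusted p = 0.0008). The apoptosis genes BAX (26.3, 23.1 and 22.8 CPM against 62.5 to 99.4) and BBC3 (6.67, 7.32 and 5.76 CPM against 12.5 to 27.1) were also lower. In the p53 pathway list, which holds CDKN1A, members went both ways. Of 26 tested, 6 were higher, 13 lower and 7 not called (5 higher and 13 lower among the 25 kept through both sides). The median was -0.77 (-0.83 at the floor), with 1 higher and 9 lower when counts were summed per line.

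Interferon-stimulated genes were called in few cases. Of the list, 31 of 32 were tested, 0 of which passed the low-count filter through KU-cHCC-001 alone and 4 through the other lines alone. Of these, 0 were higher, 6 lower and 25 not called (0 higher and 4 lower among the 27 kept through both sides), with a median of -1.54 (-2.26 at the floor). With counts summed per line there was 1 lower, and there were 2 without the 2 toceranib libraries that stood apart. The list summed to 465 to 632 CPM in KU-cHCC-001 and 473 to 6312 elsewhere, so the other lines differed far more among themselves. ISG20 was at 0.212, 13 and 1.17 CPM against 20.2 to 95.2 (kept through its high side, no test) and IRF7 at 1.85, 1.49 and 7.35 CPM against 9.12 to 122. RSAD2 (0.159, 0.132 and 0.501 CPM against 0.147 to 293), HERC6 and IRF7 lost their calls with counts summed per line (adjusted p = 0.239, 0.175 and 0.0748). In the antigen presentation list, 16 genes were tested, 0 higher and 4 lower (0 higher and 4 lower among the 15 kept through both sides), with a median of -0.20 (-0.19 at the floor). The lower ones were DLA-12 (26.5, 37.1 and 69.6 CPM against 80.9 to 215), DLA88, DLA-64 and the immunoproteasome subunit PSMB10 (13.7, 14.7 and 8.98 CPM against 29.9 to 149.6). DLA88, DLA-64 and PSMB10 lost their calls with counts summed per line (adjusted p = 0.273, 0.351 and 0.0798). The dog class I genes are near copies, and their counts are uncertain. Of chemokines and cytokines, 7 of 23 tested were higher and 4 lower (4 higher and 3 lower among the 18 kept through both sides). CXCL8, the neutrophil attractant, was at 3.02, 27.5 and 19.5 CPM against 92.8 to 564 (log2 fold change -4.28 ± 0.85, adjusted p = 0.00267). The receptors LIFR (48.2, 188 and 22.2 CPM against 1.82 to 15.5) and ACKR3 (9.37, 6.75 and 42.2 CPM against 0 to 0.416, kept through its high side, no test) were higher.

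Sterol synthesis genes showed small differences: of 24 tested, 0 were higher and 11 lower, with a median of -0.50 (-0.51 at the floor), 4 lower with counts summed per line and 7 with libraries scaled by totals alone. EBP, a sterol isomerase, was at 47.5, 17.1 and 70.5 CPM against 36.5 to 241 (log2 fold change -1.37 ± 0.17, adjusted p = 5.99e-05), and FDFT1, squalene synthase, at 67.9, 22.3 and 94.2 CPM against 43.7 to 230.2 (log2 fold change -1.20 ± 0.14, adjusted p = 5.04e-05). All 11 overlapped the other lines. Stress response genes gave 8 higher and 2 lower of 34. NUPR1, a stress-induced chromatin protein, was lower at 49.1, 53.9 and 95.8 CPM against 223 to 578 (log2 fold change -2.31 ± 0.30, adjusted p = 9.38e-05), and VLDLR higher at 81.6, 56.4 and 41.1 CPM against 3.65 to 19.1. The serine pathway enzymes PHGDH (618, 873 and 688 CPM against 252 to 485) and PSAT1 (929, 800.3 and 542 CPM against 188 to 647) were called higher, but not with counts summed per line (adjusted p = 0.0816 and 0.0809). Of 13 mitochondrial transcripts, 2 were lower, ND3 and COX2, neither with counts summed per line (adjusted p = 0.232 and 0.0819). For drug transport and metabolism, 8 of 26 tested were higher and 5 lower (7 higher and 3 lower among the 21 kept through both sides). The phospholipid transporter ABCB4 was at 47, 87.5 and 54.3 CPM against 0.0535 to 1.17 (log2 fold change 7.33 ± 0.37, adjusted p = 6.4e-08), and the multidrug exporter ABCC2 at 16, 5.66 and 42.8 CPM against 0 to 0.297 (kept through its high side, no test). ABCB1, which encodes P-glycoprotein, was at 204, 139 and 136 CPM against 29.3 to 127 (adjusted p = 0.018; 0.127 with counts summed per line).

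Whether a drug acted differently in KU-cHCC-001 was asked with an interaction term, the drug minus DMSO difference in KU-cHCC-001 minus the same difference averaged over the other lines. Each line had 1 library per treatment, so the spread came from how the other 3 lines differed in their response, with 4 residual degrees of freedom. For sorafenib edgeR called 0 of 15866 genes. The smallest adjusted p was 0.163, 1093 genes had an unadjusted p under 0.05, and DESeq2 called 99. For toceranib edgeR called 128 genes, 70 (0.441%) with a more positive and 58 (0.366%) with a more negative difference in KU-cHCC-001. DESeq2 called 661, among them 122 of the 128. Without KU-cHCC-005 there were 25 calls, 23 of them among the 128. Without the toceranib libraries of KU-cHCC-004 and KU-cHCC-005 there were 2316, including 120 of the 128, but the contrast then rests on KU-cHCC-002 alone.

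CD74, the invariant chain of MHC class II, was at 2.75, 3.99 and 317 CPM, against 0.276 to 5.13 in the other 9 libraries. Its toceranib difference was called (log2 6.42 ± 0.66, adjusted p = 0.00609). GGT1, a glutathione-cleaving enzyme of tubule and duct membranes, was at 0.265, 0.0438 and 41.5 CPM, against 0 to 18 (log2 6.51 ± 1.06, adjusted p = 0.0221). GGT1 was also higher with toceranib than with DMSO in the 3 other lines, by less. CLRN3 was at 0, 0.0438 and 9.85 CPM against 11.2 to 74.2, and PKP1, the desmosomal plakophilin, at 0, 0.438 and 2.25 CPM. Both lay below the other 9 libraries, CLRN3 with toceranib only narrowly. Their toceranib differences on the log2 scale were 9.06 ± 1.61, adjusted p = 0.0314 for CLRN3 and 9.02 ± 1.71, adjusted p = 0.0469 for PKP1. The toceranib difference of CLRN3 was not called without KU-cHCC-005 (adjusted p = 0.0753). Likewise the toceranib difference of PKP1 was not called without KU-cHCC-002 (adjusted p = 0.199), nor the toceranib difference of GGT1 without KU-cHCC-004 (adjusted p = 0.0517). SCT, which encodes the hormone secretin, went down in KU-cHCC-001 (6.83, 1.8 and 0.417 CPM) and up with toceranib in each other line (log2 -5.77 ± 0.59, adjusted p = 0.00609). EFEMP1 hardly differed between DMSO and toceranib in KU-cHCC-001 (188, 78.9 and 162 CPM). Among the other libraries it was above 0 only in KU-cHCC-005 with toceranib, at 12.7 CPM, and KU-cHCC-004 with toceranib, at 0.588, the 2 libraries with stromal transcripts. Without them the difference was -0.21 (adjusted p = 1).

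Of the 70 genes with a more positive toceranib difference, 42 were among those lower in KU-cHCC-001 over all treatments and 3 among those higher. Of the 58 with a more negative difference, 17 were among those lower and 18 among those higher. Over all tested genes 16.1% were lower and 20.6% higher, and these calls rest on the same libraries as the toceranib difference. Some of the 70 belong to the epithelial lists. CLDN3 was at 17.9, 14.2 and 180 CPM against 107 to 392 and its toceranib difference was 3.50 ± 0.37, adjusted p = 0.00609. CLDN7, given above, differed by 5.55 ± 0.55, adjusted p = 0.00609, and the mucin MUC13 (2.59, 0.702 and 78.8 CPM against 358 to 1128) by 4.18 ± 0.60, adjusted p = 0.0175. Of the tested keratins, tight junction genes, adherens junction and desmosome genes and epithelial regulators, 0 of 9, 3 of 29, 1 of 20 and 4 of 34 had a more positive difference and 0 a more negative one, against 0.441% and 0.366% of all tested genes. All 8 were also called without the toceranib libraries of KU-cHCC-004 and KU-cHCC-005. In the matrix list 5 of 41 had a more negative difference and 0 a more positive one. Of the 5, COL6A2 and EFEMP1 hardly differed between DMSO and toceranib in KU-cHCC-001, and without those 2 libraries their differences were -0.52 and -0.21 (adjusted p = 1 for both). COL5A2, COL18A1 and FBLN1 were still called then, at -3.29, -2.17 and -2.86. ZEB1 was also more negative (-5.41 ± 0.87, adjusted p = 0.0212). The toceranib library of KU-cHCC-001 held no count of FAM3D, CFTR or SNRPN and 0.167 CPM of S100P, all high in the other lines. It also held DPT at 8.43 and PECAM1 at 13.2 CPM, markers of fibroblasts and endothelium that were at 0 and at 0.212 with DMSO. Their part in the result was not tested.

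**Figure D4:**
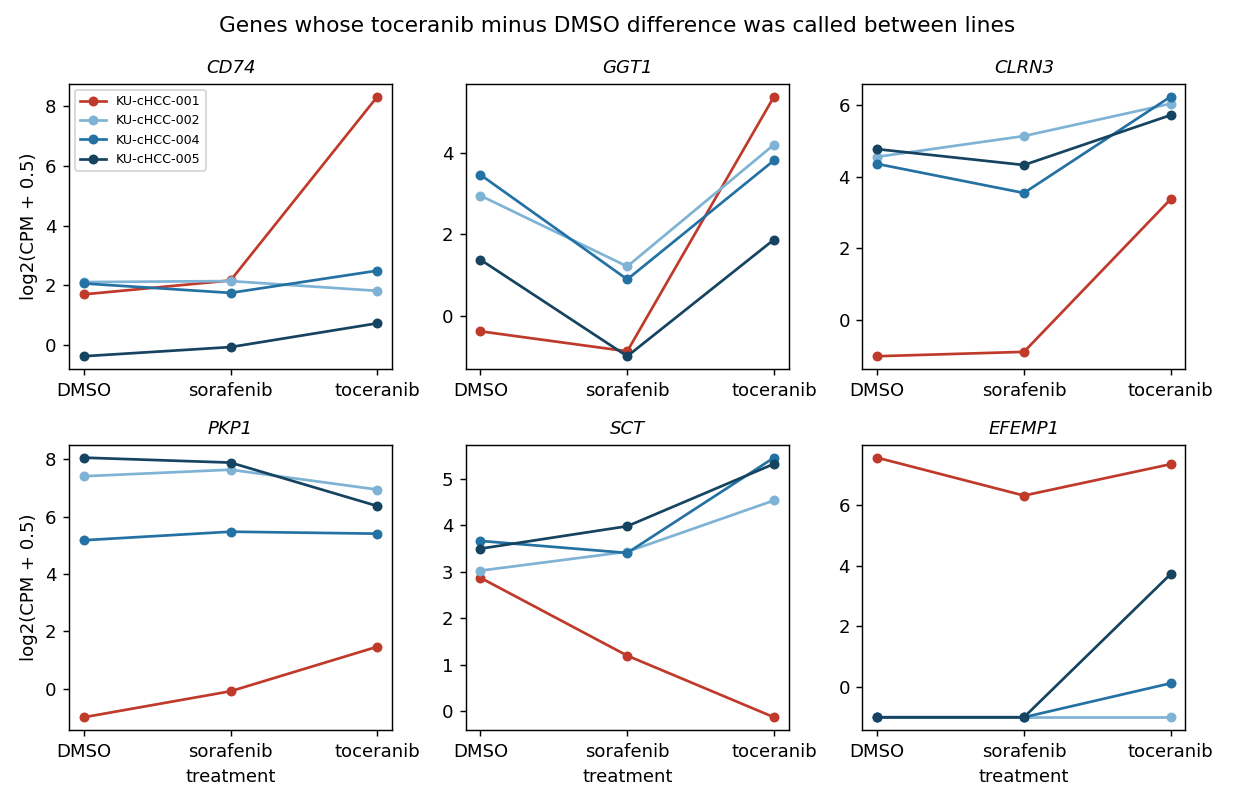
Log2(CPM + 0.5) of the 6 named genes with a called toceranib difference, by treatment; each point is 1 library and each line joins the libraries of 1 KU-cHCC line (red, KU-cHCC-001; blues, the others). CD74 reaches 317 CPM with toceranib in KU-cHCC-001 and stays at 5.13 CPM or less in the other lines, and EFEMP1 differs by the KU-cHCC-005 and KU-cHCC-004 libraries.

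Differences were also read along the chromosomes, in the RefSeq gene order of the assembly UU_Cfam_GSD_1.0, which was used for neighbourhood alone. Windows of 25 successive genes with at least 1 CPM on both sides were taken, 11062 in all, and 5% of their median log2 fold changes lay under -0.567 and 5% over 0.451. Windows with a median of at least 1 in size merged into 10 blocks. The blocks were picked by these values and are given with no test. Over all tested genes 20.6% were called higher and 16.1% lower. The block from ESRP2 to TK2 held 47 genes with a median of 1.59, of which 35 were called higher and 9 lower. Its median was 1.39, 1.57 and 1.64 against each other line (KU-cHCC-002, then KU-cHCC-004, then KU-cHCC-005), and 1.34, 1.57 and 1.66 within the treatments. Not all blocks were as even. In 3 of the 8 higher blocks the median within toceranib was near 0, at -0.0342 from LOC111098257 to ALKBH6, -0.122 from CHMP2A to ZNF580 and -0.0625 from NHLRC3 to LOC477325. ESRP2, which opens the first block, was itself lower. On the lower side, the block from SLC39A8 to STBD1 held 67 genes with a median of -1.03, 40 of them called lower and 2 higher. That from YIPF1 to NPHP4 held 54 genes with a median of -1.02, also 40 called lower and 2 higher. DNA copy number was not analysed here.

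**Figure D5:**
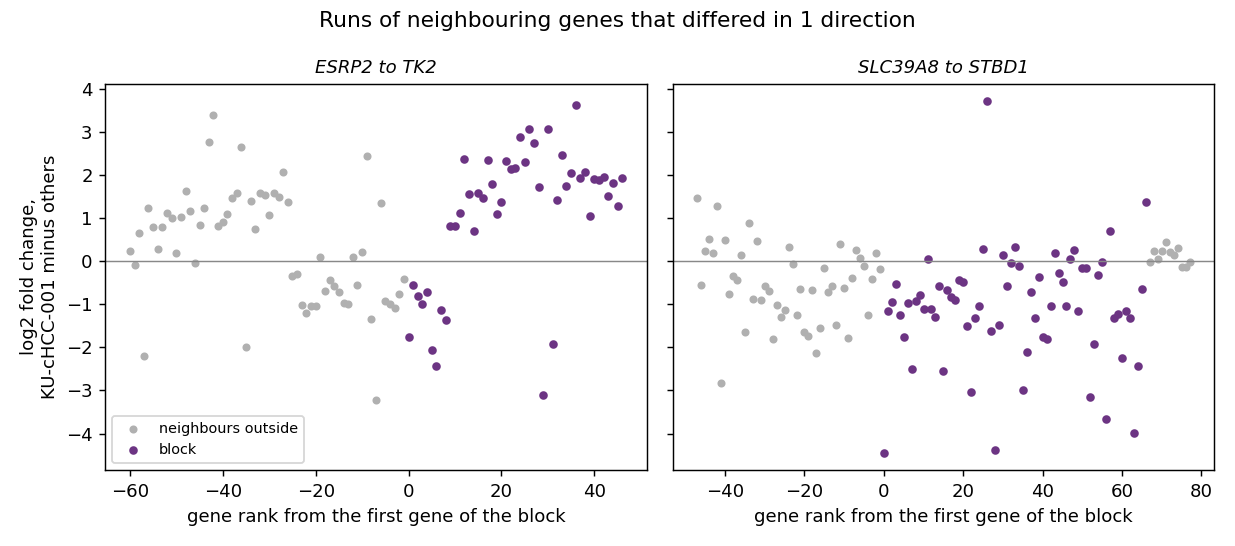
Log2 fold change of KU-cHCC-001 minus the other lines for single genes (points) along their RefSeq order, counted as the rank from the first gene of the block; purple points are genes of the block, grey points the neighbours outside it. In the left panel the values near ESRP2 lie mostly below 0 and change to mostly above 1 some genes after it. The grey points furthest left in that panel belong to another higher block, ZFP1 to CYB5B. In the right panel most genes from SLC39A8 to STBD1 lie under 0 (median -1.03).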

How the data were processed

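RNA of 4 canine cell lines, 1 library per line and treatment, was sequenced after NEBNext Ultra II Directional preparation, per the labels' protocols. The authors deposited raw counts per gene; TopHat is named in the submitters' processing notes, while for the counter, genome build, annotation and strand setting nothing is given in the sources used here. Rows sharing a symbol (500 of 39954, for 89 symbols) were summed. Genes were kept by edgeR's filterByExpr with a minimum count of 10 (15866 of 39543), scaled by TMM and tested with edgeR 4.0.16 in R 4.3.3 (robust quasi-likelihood, treatment plus KU-cHCC-001 against the rest, 8 residual degrees of freedom, Benjamini-Hochberg). The steps were tested on simulated data. Alternatives used DESeq2 1.42.0, limma 3.58.1, other scalings, filters and left-out libraries.

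Named genes are the 6 markers, the 12 largest differences per direction without overlap (at least 10 CPM), up to 4 called members per list (at least 5 CPM), 6 per interaction, and uncalled members that describe a list. Further called members were named after their values were seen. The members and lists were chosen with earlier results of these data known. Symbols of 15384 tested genes matched RefSeq. Total counts of 12008366 to 21943572 limit precision, and counting intervals and the floor of 3 counts cover counting error only. Some named genes and lists are not reported here.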

Additional observations from a re-analysis of the deposited data

Results flagged for a closer look

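In 12 of 148 named genes, 1 of the 9 libraries of the other lines stood far from the rest on the log2(CPM + 0.5) scale by Dixon's test. The test's usual rate of about 1 in 20 groups cannot be set against this count. The 9 libraries differ in line and treatment, and high values under 1 CPM were not flagged. In 11 of the 12 that library was KU-cHCC-005 with toceranib, which also held the stromal transcripts described above. It had MAP1B at 23.7 CPM (the next library 3.21), EFEMP1 at 12.7 (0.588), COL6A2 at 7.9 (0.856), FBN1 at 6.24 (0.802), CDH13 at 5.57 (1.25) and ADAM19 at 5.49 (0.695). Lower values that stood apart there were ID4 at 3.58 CPM (0.918), GLI3 at 2.83 (0.374), THY1 at 2.66 (0.374), AXL at 1.41 (0.245) and DES at 1.16 (0.107). All 11 were on the higher side in KU-cHCC-001, whose libraries lay above this one except in COL6A2 and CDH13. Among them ADAM19, AXL, COL6A2, DES, EFEMP1, FBN1, GLI3 and THY1 passed the low-count filter through KU-cHCC-001 alone. Their higher calls follow from how they were kept. LCP1, an actin bundler of leukocytes, was at 59.7 CPM in KU-cHCC-005 with sorafenib, with the next library at 2.97.

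By the interaction test, 6 named genes had a called toceranib difference between KU-cHCC-001 and the other lines. CD74 (log2 6.42) and SCT (-5.77) kept the call in each alternative run. CLRN3 (9.06), PKP1 (9.02) and GGT1 (6.51) each lost the call when 1 other line was left out. CLRN3 and PKP1 had no count in KU-cHCC-001 with DMSO, so the size of their differences is uncertain. For EFEMP1 (-9.60) KU-cHCC-001 hardly moved, and the difference was -0.21 (adjusted p = 1) without the 2 toceranib libraries that hold stromal transcripts. The DPBS library labelled KU-cHCC-001, in no comparison here, held KRT19 at 2620 CPM.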

How the results depend on the processing

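Higher and lower calls numbered 3269 and 2548 in the edgeR fit, 1315 and 817 with counts summed per line, 830 and 523 in the DMSO libraries alone, 844 and 547 in the sorafenib libraries alone and 1302 and 910 in the toceranib libraries alone. In these single-treatment fits KU-cHCC-001 has 1 library, which is assumed to vary like the others. Leaving out 1 library at a time gave 2143 to 3513 and 1716 to 2737. Without the treatment term, which is the block shared by the lines, the counts were 2345 and 1763. No paired analysis of numbered replicates was possible because the labels give none. DESeq2 gave 3618 and 3073, and limma voom with line as a block 2656 and 1856. Of 4031 values of 144 named genes over the alternatives, none reversed and 316 lost the call, 40 of them in the fit per line. These genes were named as markers or for being called in the main fit, and the alternatives reuse the same libraries. A lack of reversals was therefore likely from the outset. The sorafenib interaction gave 99 calls with DESeq2, 74 with no low-count filter, 2 without KU-cHCC-002, 2 without KU-cHCC-004, 1 without KU-cHCC-005 and 140 without the toceranib libraries of KU-cHCC-004 and KU-cHCC-005, a setting chosen after seeing the data. The toceranib interaction gave 661 with DESeq2, 568 with no filter, 25 without KU-cHCC-005 and 2316 without those 2 libraries. The cause of these shifts was not tested. The 3 libraries of a line are 1 line, and genes under the filter were not tested.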
